A study of Mus musculus with 16 samples.

Results

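Cadherins are adhesion proteins that hold cells together through calcium-dependent contacts between their extracellular repeats. Classical cadherins connect to the actin cytoskeleton through catenins, and in the heart N-cadherin is the main classical cadherin of the intercalated disc, the junction between neighbouring myocytes. Protocadherins are a larger group of mostly neural proteins, many of them encoded in gene clusters whose alternative first exons give each neuron its own surface identity. Genes of both groups range from a few kb to over 1 Mb in length, so DNA breaks at them can be read against gene length.

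The family was taken as all protein-coding mouse genes whose symbol is Cdh followed by a digit or starts with Pcdh, and 92 of 21887 protein-coding genes in the RefSeq annotation of mm10 met this rule. They comprise 35 single genes and 57 genes in the 3 protocadherin clusters on chromosome 18, with 14 genes in Pcdha, 22 in Pcdhb and 21 in Pcdhg. Because the genes of a cluster lie side by side or over one another, 1 peak can touch many of them, and the clusters are treated below as 3 loci beside the 35 single genes. With flanks of 1000 bp the family spans 10.7 Mb, against 1068 Mb for all protein-coding genes together.

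Breaks were mapped by END-seq, which sequences the ends of DNA double-strand breaks, in cardiac myocytes isolated by Langendorff perfusion. Myocytes came from 3 Myh6-Cre:LmnaF/F mice (cKO), which carry floxed alleles of Lmna, the gene of the nuclear lamins A and C, and a Cre driven in cardiac muscle by the Myh6 promoter, so that Lmna is deleted in myocytes. For comparison, myocytes came from 3 wild-type (WT) mice with neither transgene nor floxed alleles named in their labels. No group carried Cre alone, so the presence of Cre and the loss of Lmna cannot be told apart, and the labels give neither age nor sex. Lamin A and IgG libraries of WT myocytes, also in the series, were not used here.

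Libraries are named by genotype and number, and 3 values of a genotype always stand in the order 1, 2, 3. The deposited cKO lists held 29743, 13630 and 22317 peaks, against 1345, 15458 and 8320 in the WT lists. Depth is unknown, so a longer list can reflect more breaks, more reads or both, and a gene without a peak is not shown to be free of breaks. A peak also cannot tell a break in few cells from a weak break in many. Peak names in the library labelled cKO 1 start with WT-4, which is also how those of WT 3 start. The whole cKO 1 and WT 3 lists shared 57 peaks with the same start and end, where cKO 2 shared 70 and cKO 3 shared 55 with WT 3. The main totals, differences, ranks and region counts are also given without cKO 1. Lmna itself had 1, 0 and 0 peaks in the cKO libraries and none in the WT libraries, which says nothing on its deletion. A peak list does not measure expression, so the labelled cell type could not be checked against marker genes.

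At cadherin and protocadherin genes lay 117, 62 and 87 peaks in the cKO libraries, against 6, 67 and 47 in the WT libraries. The groups overlapped, since WT 2 exceeded cKO 2. Means were 88.7 ± 27.5 for cKO and 40.0 ± 31.1 for WT (SD, n = 3 each), and the log2 ratio of the geometric means was 1.69. The lists as a whole differed by a log2 ratio of 1.90, and the family's share of the list averaged 0.413% ± 0.0366 for cKO and 0.481% ± 0.0725 for WT (SD, n = 3 each). The difference in share, cKO minus WT, was -0.0688 percentage points, and -0.0591 without cKO 1. Without cKO 1 the log2 ratio of family peaks was 1.46, and without WT 1, which had the fewest peaks, it was 0.61, and without WT 2 it was 2.35. When each list was reduced to its 1345 peaks of highest fold, it was 0.057.

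**Figure D1:**
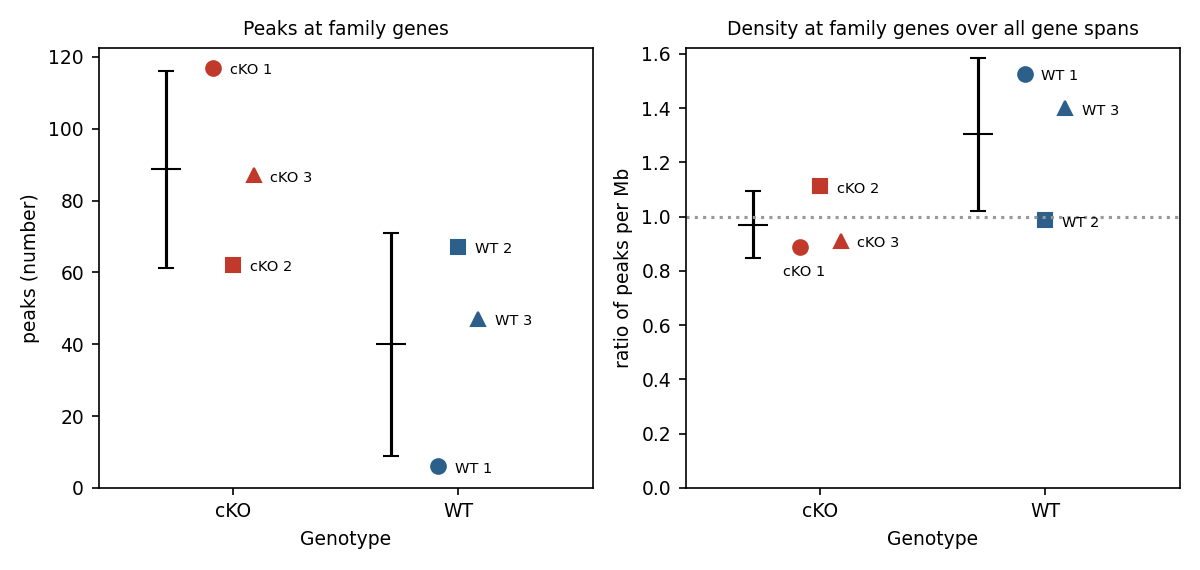
Left, number of END-seq peaks at cadherin and protocadherin genes in each cKO and WT library; right, peaks per Mb of family gene spans divided by peaks per Mb of all protein-coding gene spans. Black bars show the mean and SD of 3 libraries per genotype; the genotypes overlap in both panels, and the dotted line marks equal density.

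Per Mb of gene span, the family was hit about as densely as protein-coding genes in general. The density at family genes divided by that over all gene spans was 0.889, 1.11 and 0.911 in the cKO libraries, against 1.53, 0.986 and 1.40 in the WT libraries. It averaged 0.971 ± 0.123 for cKO and 1.30 ± 0.282 for WT (SD, n = 3 each), with overlapping groups, and WT 1 contributed only 6 family peaks. A pair of genes, Cdh13 and Cdh12, held 43, 23 and 41 of the family's peaks in the cKO libraries, against 4, 27 and 19 in the WT libraries. Without them, a setting chosen after seeing the data, the mean ratio over the 6 libraries was 0.783 instead of 1.14, and without cKO 1 the ratio was 1.19.

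Peaks at single genes lay mostly in the long ones. A gene is called hit when a peak overlaps its span extended by 1000 bp, and 16 of the 35 single genes were hit in at least 2 of 3 cKO libraries and 11 in at least 2 of 3 WT libraries. Over all 92 members the counts were 51 in cKO and 24 in WT (44.9 and 22.5 expected from length), but many of these are cluster genes that share the same peaks. Without WT 2 or without WT 3 the WT count was 4 (4.23 and 4.53 expected). A WT hit then needed a peak in both remaining libraries, 1 of them WT 1 with its 1345 peaks. Without cKO 1, 48 members (33.1 expected from length) and 13 of the 35 single genes (15.6 expected) were hit in both other cKO libraries. Among all protein-coding genes 23.1% were hit on that basis in cKO and 9.56% in WT, yet family genes are longer than most. From the hit rates of other genes in the same of 20 length bins, 20.5 of the 35 single genes would be hit in cKO and 10.9 in WT; with 100 bins, the expectations were 20.9 and 12.7. No peak in any library was found at 11 of the 35 single genes and at 33 of the 92 members (9.21 and 33.6 expected from length). Of all protein-coding genes, 61.7% had none.

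The single genes of the family divided by length. Of the 10 single genes over 300 kb, all 10 were hit in at least 2 cKO libraries and 9 in at least 2 WT libraries, where 98% and 75% of all genes of that length were. Of the 9 single genes between 100 and 300 kb, 3 were hit in at least 2 cKO libraries and 1 in at least 2 WT libraries, against 74.1% and 32.6% of all genes of that length. Pcdha and Pcdhg genes of that length, which share their peaks, are not among these 9. Without cKO 1, all 10 of the longest and 2 of these 9 were hit in both other cKO libraries, where 91.0% and 52.2% of all genes of those lengths were. These 9 had 18.2 peaks per Mb summed over the 6 libraries, against 36.1 for other genes of 100 to 300 kb, while the 10 longest had 41.4 against 35.1. In the 100 to 300 kb class the density of these 9 was below that of other genes in each of the 6 libraries, with 8.08 against 12.2 peaks per Mb in cKO 1, 2.69 against 5.29 in cKO 2, 2.69 against 9.01 in cKO 3, 0 against 0.369 in WT 1, 3.37 against 6.35 in WT 2 and 1.35 against 2.85 in WT 3. Only 27 peaks in all stand behind the values of these 9.

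**Figure D2:**
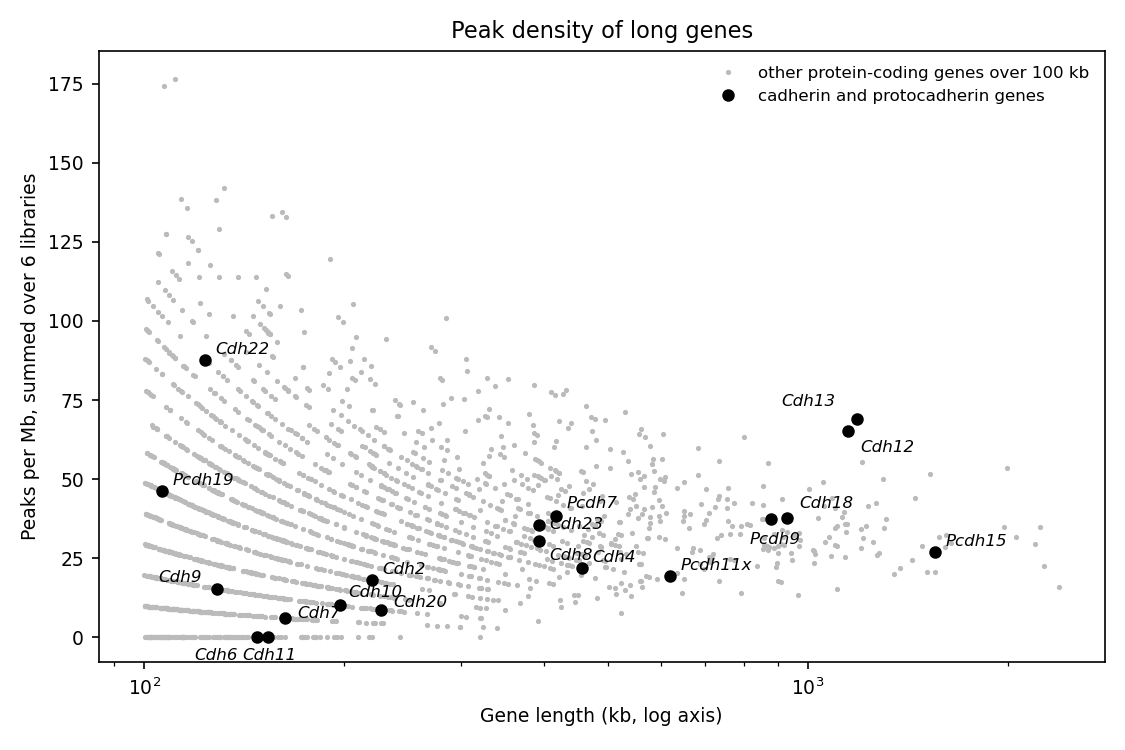
Peaks per Mb summed over the 6 libraries (y axis) against gene length in kb (x axis, log scale) for the single members over 100 kb (black) and the other protein-coding genes over 100 kb (grey). Cdh13 and Cdh12 lie above the other genes over 1 Mb, whereas Cdh6, Cdh11, Cdh7, Cdh10 and Cdh20 lie at or near 0.

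Cdh13 encodes T-cadherin, an atypical cadherin that is anchored to the membrane by a lipid and binds adiponectin; it is made in heart and vessels. The gene lies on chromosome 8 from 118140017 to 119324929 (mm10) and is 1185 kb long. It had 24, 11 and 22 peaks in the cKO libraries, against 1, 18 and 6 in the WT libraries. cKO 1 and cKO 3 were above every WT library and cKO 2 lay below WT 2, so the groups overlapped. The difference in mean log2(peaks + 1) was 1.57, with p = 0.2 (exact permutation test over 20 assignments, two-sided; the smallest p possible is 0.1) and an adjusted p of 1 over 8383 genes. With lists of 1345 peaks the difference turned to -0.14 (exact permutation p = 1), and without cKO 1 it was 1.37 (exact permutation p = 0.4). It was 0.72 without WT 1 and 2.35 without WT 2 (exact permutation p = 0.4 and 0.1, the smallest possible being 0.1).

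Cdh12, which encodes the type II cadherin also called N-cadherin 2 and is known mainly from brain, came next in number of peaks. It lies on chromosome 15 from 20448878 to 21598421 and is 1150 kb long. It had 19, 12 and 19 peaks in the cKO libraries, against 3, 9 and 13 in the WT libraries. cKO 2 was below WT 3, so here too the groups overlapped (difference 1.07 in mean log2(peaks + 1), exact permutation p = 0.2, adjusted p = 1 over all genes). Without cKO 1 the difference was 0.97 (exact permutation p = 0.3).

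By density summed over the 6 libraries, Cdh13 and Cdh12 ranked 1 and 2 among the 59 protein-coding genes over 1 Mb, and they did so without cKO 1 too. In single libraries Cdh13 ranked 2, 4 and 1 in cKO and 19, 1 and 6 in WT, and Cdh12 ranked 6, 3 and 2 in cKO and 2, 10 and 1 in WT. The WT 1 ranks rest on 1 peak at Cdh13 and 3 at Cdh12. Summed over the 6 libraries they had 69.1 and 65.1 peaks per Mb, where the median of these genes was 31.7 and the next gene, Nkain2, had 55.4. Among the 557 genes over 300 kb they ranked 21 and 33. The order of the pair differed between libraries. In cKO 1, cKO 2 and cKO 3 Cdh13 had 20.2, 9.27 and 18.5 peaks per Mb and Cdh12 had 16.5, 10.4 and 16.5, against medians for genes over 300 kb of 10.96, 5.20 and 8.48. Cdh13 had 15.2 peaks per Mb in WT 2 and Cdh12 had 7.82, but in WT 3 the values were 5.06 for Cdh13 and 11.3 for Cdh12, against medians of 5.75 in WT 2 and 2.73 in WT 3. In WT 1 Cdh13 had 0.843 and Cdh12 had 2.61, against a median of 0.

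The sequence beside these genes held fewer peaks than the genes themselves. In the 1 Mb below and the 1 Mb above Cdh13 there were 42 and 42 peaks over the 6 libraries, against 69.1 per Mb inside. Beside Cdh12 there were 29 and 26, against 65.1 inside. Beside Pcdh15 the order was the other way, with 32 and 37 outside and 27.0 per Mb inside, and Cdh18 had 30 and 37 outside and 37.6 inside. The stretch above Cdh12 and the stretch below Cdh18 share most of their sequence.

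**Figure D3:**
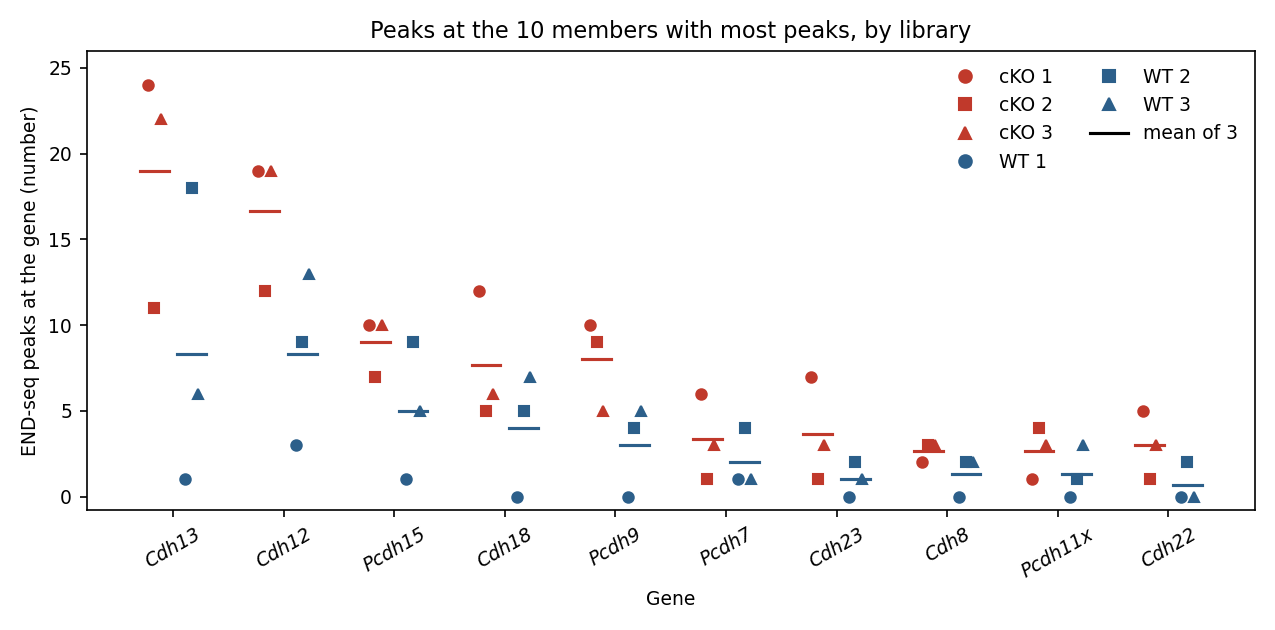
Number of END-seq peaks (y axis) at the 10 members with most peaks (x axis) in each cKO (red) and WT (blue) library, with the mean of each genotype as a line. In each of the 10 genes at least 1 WT library has as many peaks as a cKO library or more.

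The 5 genes of classical type I cadherins, which form the catenin-linked junctions of most tissues, held 18 peaks over the 6 libraries, or 22.0 per Mb, where the whole of the type II genes had 37.3. Of the 5, 3 were hit in at least 2 cKO libraries and 0 in at least 2 WT libraries. The 3 were Cdh2, Cdh4 and Cdh3, of 220, 457 and 46.1 kb. Of all genes of 100 to 300 kb, over 300 kb and 0 to 50 kb, 74.1%, 98% and 12% were hit so in cKO. In WT the shares were 32.6%, 75% and 4.11%. Cdh2, which encodes N-cadherin, lies on chromosome 18 and is 220 kb long; it had 2, 1 and 0 peaks in the cKO libraries, against 0, 1 and 0 in the WT libraries. These peaks fell into 3 regions, of which 1 was seen in 2 libraries, and their folds were between 7.58 and 10.4. The fold of a peak is the authors' value against that library's own background, and folds are given here to describe and rank peaks within a list. Cdh4, which encodes R-cadherin, had 4, 1 and 2 peaks in the cKO libraries, against 0, 3 and 0 in the WT libraries. Its most recurrent region began at -0.423 kb relative to the lower end of the gene, just outside it, on chromosome 2 from 179442000 to 179442231, and was present in all 3 cKO libraries and WT 2. Cdh3, the gene of P-cadherin, had 2, 0 and 1 peaks in the cKO libraries and none in WT, or 62.4 per Mb over its 46.1 kb; Cdh1, the gene of E-cadherin, had 1 peak in cKO 1 alone, and Cdh15, the gene of M-cadherin of skeletal muscle, had none.

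Type II cadherins, which act mainly in sorting of neurons and mesenchymal cells, differed widely among themselves. Besides Cdh12, the 929 kb gene Cdh18 had 12, 5 and 6 peaks in the cKO libraries, against 0, 5 and 7 in the WT libraries, again with overlapping groups. Cdh8 had 2, 3 and 3 peaks in the cKO libraries and 0, 2 and 2 in the WT libraries. Cdh22, at 123 kb, was the densest member between 100 and 300 kb, with 5, 1 and 3 peaks in the cKO libraries, against 0, 2 and 0 in the WT libraries (exact permutation p = 0.2, adjusted p = 1 over all genes). At the other end, Cdh11, which encodes osteoblast cadherin and is a known fibroblast cadherin, and Cdh6, which encodes kidney cadherin, had no peak in any library although they are 153 and 148 kb long. Of all protein-coding genes of 100 to 300 kb, 7.48% had none. The endothelial gene Cdh5, which encodes VE-cadherin, also had none, over 42.9 kb.

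In some groups of neighbouring type II genes the gene spans held fewer peaks per Mb than the stretch around them. On chromosome 15, Cdh6, Cdh9 and Cdh10 held 4 peaks together over the 6 libraries, or 8.34 per Mb of gene span, whereas the whole stretch that runs through all 3, from 13028699 to 19016206, held 216 peaks or 36.1 per Mb. Cdh12 and Cdh18 lie further along the same chromosome and had 65.1 and 37.6 per Mb. With these included, the order was the other way, with 44.5 per Mb at the chromosome 15 genes and 38.1 in the whole stretch. On chromosome 1, Cdh20, Cdh7 and Cdh19 held 3 peaks, all in cKO 1, or 6.18 per Mb, against 34.8 per Mb in the whole stretch from 104768340 to 110977601. On chromosome 8 the gap was smaller, with 20.2 per Mb at Cdh8, Cdh11 and Cdh5 and 26.6 in the whole stretch. The 36.1 and 34.8 per Mb of the stretches through Cdh6, Cdh9 and Cdh10 and through Cdh20, Cdh7 and Cdh19 lay near the median of genes over 300 kb. That median was 33.8 per Mb over the same 6 libraries.

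Among the remaining cadherins, Cdh23, which encodes a component of the tip links of inner-ear hair cells, had 7, 1 and 3 peaks in the cKO libraries, against 0, 2 and 1 in the WT libraries. One peak each in cKO 1, cKO 3 and WT 2 also lies at Vsir, a gene within its span. Cdh26 had 1 peak in every library except WT 1, at a single site on chromosome 2 from 178486898 to 178487123, near the far end of the gene, 56.4 kb downstream of the annotated start. Cdh16 and Cdh17, which encode kidney and intestinal cadherins, had none.

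Protocadherin 15, the partner of cadherin 23 in the tip link, is encoded by the longest member, Pcdh15, of 1554 kb. Pcdh15 had 10, 7 and 10 peaks in the cKO libraries, against 1, 9 and 5 in the WT libraries. At 27.0 peaks per Mb summed over the libraries it ranked 45 among the 59 genes over 1 Mb, and 37 without cKO 1. In single libraries it ranked 54, 40 and 46 in cKO and 24, 29 and 26 in WT, so the low rank came from the cKO lists. Its ranks in WT 2 and WT 3 lay near the middle. The WT 1 rank rests on 1 peak, and genes with no peak in WT 1 tie at rank 30. Among the delta protocadherins, which act in neural circuits, Pcdh9 had 10, 9 and 5 peaks in the cKO libraries and 0, 4 and 5 in the WT libraries, and Pcdh7 had 6, 1 and 3 in cKO and 1, 4 and 1 in WT. The groups overlapped or touched in both genes. The short genes Pcdh8, Pcdh18, Pcdh20 and Pcdh1 had no peak, Pcdh10 and Pcdh17 had 1 each, in cKO 1, and Pcdh12, the endothelial protocadherin gene, had 1 peak each in cKO 1, cKO 3 and WT 2, which also lies at its neighbour Rnf14.

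A pair of delta protocadherin genes lie on chromosome X. Pcdh11x had 1, 4 and 3 peaks in the cKO libraries, against 0, 1 and 3 in the WT libraries. Chromosome X held 2.72%, 5.91% and 5.29% of the peaks of cKO 1, cKO 2 and cKO 3, and 6.25%, 2.37% and 6.15% of those of WT 1, WT 2 and WT 3, so the libraries with a low share of X, cKO 1 and WT 2, were also those with 1 peak at Pcdh11x. Chromosome Y held 489, 17 and 18 peaks in the cKO libraries, against 23, 211 and 18 in the WT libraries. As shares of the lists these were 1.64%, 0.125% and 0.0807% in cKO, and 1.71%, 1.36% and 0.216% in WT. The part that the sex chromosomes play in these values was not tested.

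Pcdh19, whose protein pairs with N-cadherin in adhesion and whose human gene is linked to a form of epilepsy, had a single site, seen in every library except WT 1. The region spans chromosome X from 133688469 to 133688672 on mm10, and its nearer edge lies 321 bp downstream of the annotated start on the minus strand. Its folds over background were 31.7, 29.96 and 29.2 in the cKO libraries, against 21.2 and 15.02 in WT 2 and WT 3. It is the region nearest to an annotated start among members with a start in the promoter table, and the start sequence is shown because the peak begins just beyond it. The window from RefSeq (GRCm38.p6, chrX:133688944-133689243, minus strand) reads 5′ to 3′, with the 50 bases from the start onward in capitals:
Pcdh19: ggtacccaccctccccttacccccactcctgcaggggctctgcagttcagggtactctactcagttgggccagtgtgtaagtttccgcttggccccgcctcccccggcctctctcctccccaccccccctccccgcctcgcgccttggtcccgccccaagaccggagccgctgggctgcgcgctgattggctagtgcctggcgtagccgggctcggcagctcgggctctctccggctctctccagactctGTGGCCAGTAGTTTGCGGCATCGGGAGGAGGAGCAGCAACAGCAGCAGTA

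The window is 67.7% G and C, against a median of 52.7% over 32851 such windows, of which 86.8% are lower. No peak overlapped this window or any other of the 25 start windows of the 22 members in the table, in any of the 6 libraries. The Cdh4 region that began at -0.423 kb relative to the lower end of its gene is not covered, since no start of Cdh4 was available for this comparison. Over all windows of the table, 1.05%, 0.399% and 0.508% overlapped a peak in the cKO libraries, against 0.0122%, 0.639% and 0.992% in the WT libraries, so a count of 0 among 25 is not a result about the family. The next nearest regions lay 4.64 kb downstream of the start of Cdh24, a type II gene whose only peak was in cKO 1, and 5.05 kb upstream of an annotated start within Cdh12, each in 1 library.

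The clustered protocadherins, whose isoforms share 3′ exons within Pcdha and within Pcdhg, had peaks at Pcdha and Pcdhg but none at Pcdhb genes. Over the 6 libraries Pcdha had 30.7 and Pcdhg 27.5 peaks per Mb, against 36.1 for other genes of 100 to 300 kb. Peaks at Pcdha genes numbered 1, 2 and 2 in the cKO libraries, against 0, 2 and 1 in the WT libraries. At Pcdhg they numbered 1, 1 and 2 in the cKO libraries and 0, 1 and 0 in the WT libraries. The 22 Pcdhb genes had none within 1000 bp, although the stretch between them held 1, 1 and 0 peaks in the cKO libraries, against 0, 1 and 0 in the WT libraries. The most recurrent sites lay in the last part of each locus, 243 kb from the lower end of the 259 kb Pcdha stretch and 164 kb from that of the 180 kb Pcdhg stretch, and both were present in all 3 cKO libraries and in WT 2. Because every Pcdha gene spans the first of these sites, 1 peak counts as a hit in 14 genes.

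Some sites at family genes recurred between mice, while most (60.9%) were seen in 1 library only. The peaks of the 6 lists merged into 197 regions at family genes, of which 77 (39.1%) were seen in at least 2 libraries, 20 (10.2%) in at least 5 and 4 in all 6. For other protein-coding genes the shares were 45.4% in at least 2 libraries and 9.16% in at least 5 of 18823 regions. Of the 197 regions, 57 (28.9%) had peaks in both genotypes, against 30.8% at other genes. A further 6 (3.05%) had peaks in all 3 cKO libraries and in no WT library, against 3.49% at other genes, and 0 had the reverse pattern, against 0.0266%. Without cKO 1 there were 150 regions, of which 39.3% were seen in at least 2 libraries, against 43.1% at other genes, and 34.7% in both genotypes, against 36.8%. None of these shares was tested against those of other genes.

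**Figure D4:**
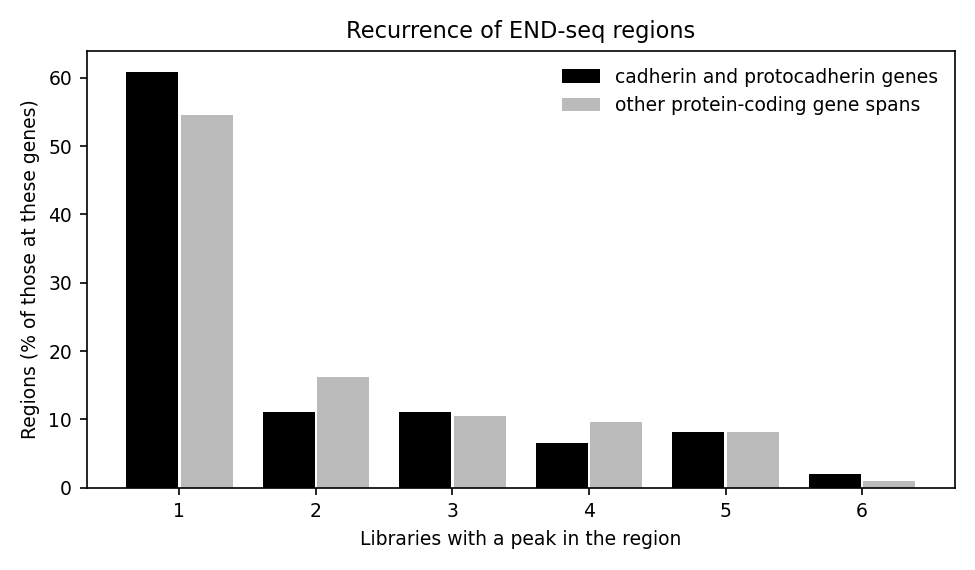
Percentage of merged END-seq regions (y axis) found in 1 to 6 of the libraries (x axis), for the 197 regions at family genes (black) and the 18823 at other protein-coding genes (grey). Single-library regions make up 60.9% at family genes and 54.6% at other genes.

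The 4 regions shared by all 6 libraries lay in Cdh13, Cdh12, Pcdh15 and Pcdh7, which were also the 4 members hit in all 6; over all genes 1.25% were, and 21.2% of those over 300 kb. The site in Cdh13 had the highest mean fold of the 197 regions over the libraries with a peak, 49.8. It lies on chromosome 8 from 118738376 to 118738660, 598 kb from the lower end of the gene, and its folds over background were 60.0, 48.4 and 56.0 in the cKO libraries, against 31.0, 55.8 and 47.4 in the WT libraries. By fold it stood within the top 0.108%, 0.873% and 0.408% of the peaks of the cKO lists, and within the top 1.56%, 0.524% and 0.721% of those of the WT lists.

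The Cdh12 site common to all libraries lies on chromosome 15 from 21143400 to 21143666. Its folds were 50.6, 46.9 and 50.8 in the cKO libraries, and 15.2, 47.2 and 25.8 in WT 1, WT 2 and WT 3. Another strong Cdh12 site, from 21366941 to 21367203, was present in every library except WT 2. In Pcdh15 the common site, from 73416101 to 73416369 on chromosome 10, had folds of 49.4, 39.7 and 46.7 in the cKO libraries, against 11.2, 35.5 and 23.2 in the WT libraries. A site in Cdh8, on chromosome 8 from 99051970 to 99052259, reached 53.9, 45.5 and 51.7 in the cKO libraries, against 47.5 and 35.5 in WT 2 and WT 3, and had no peak in WT 1. In Cdh13, Cdh12 and Pcdh15 the lowest fold of the common site came from WT 1. The site in Pcdh7, from 57861656 to 57861931 on chromosome 5, recurred in all libraries with folds of 8.99, 5.26 and 9.16 in the cKO libraries, against 9.27, 8.82 and 11.9 in the WT libraries. These were below the median fold of the list in the 3 cKO libraries and WT 2, and above it in WT 1 and WT 3. The highest folds of the other strong members averaged 50.4 ± 4.33 in Cdh8, 45.2 ± 5.0 in Pcdh15 and 39.0 ± 6.34 in Pcdh9 over the 3 cKO libraries (SD).

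Along the longest genes, sites were spread rather than confined to 1 place. Cdh12 had 34 regions, with 9, 9, 8 and 8 in 4 successive equal parts of its span. Cdh13 had 32, with 7, 10, 12 and 3, and its longest stretch without a region, of 152 kb, began 37.3 kb from the lower end. Pcdh9 had 21 regions, with 9, 7, 3 and 2. In Cdh13 21 of the 32 regions were seen in at least 2 libraries, in Cdh12 15 of 34 and in Cdh18 5 of 25. Regions seen in every cKO library but in no WT library numbered 2 in Cdh12, 2 in Pcdh9, 1 in Cdh13 and 1 in Pcdh15, with folds from 8.46 to 26.6.

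**Figure D5:**
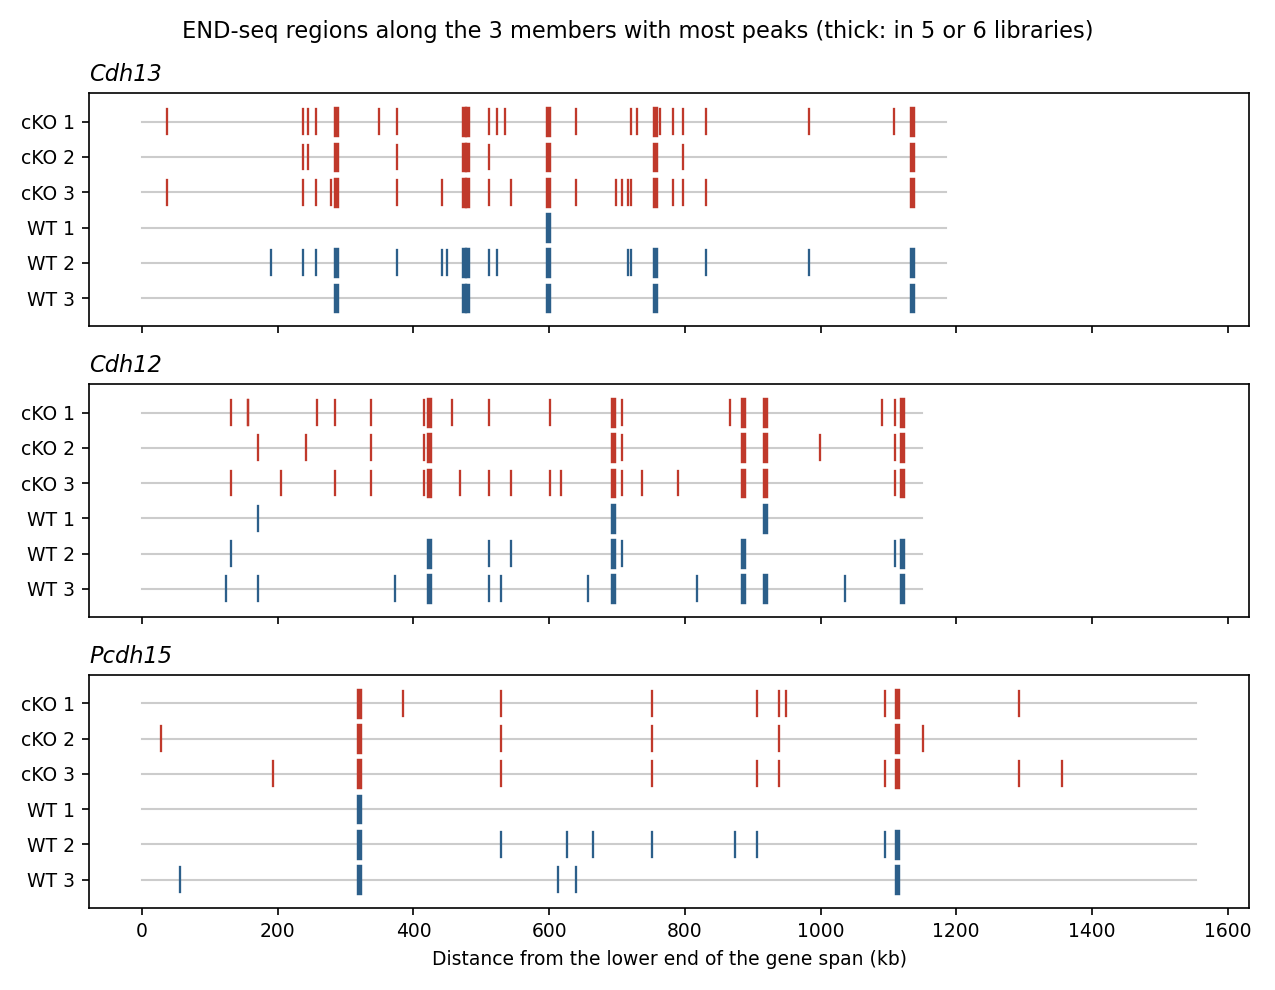
Positions of END-seq regions along Cdh13, Cdh12 and Pcdh15, with cKO libraries above WT libraries (x axis, distance in kb from the lower end of the gene span). Thick marks are regions found in 5 or 6 libraries; 6 lie in Cdh13, 5 in Cdh12 and 2 in Pcdh15.

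No member set the genotypes apart. Of the 92 members, 0 were hit in every cKO and in no WT library, where 1.43% of all protein-coding genes were, and 0 had the reverse pattern, where 0.00914% did. Likewise 0 members had more peaks in every cKO than in any WT library, against 2.44% of all genes, and 0 the reverse, against 0.00914%. From other genes in the same length bins, 2.46 of the 92 members would be hit in every cKO and no WT library. By the same reckoning 6.32 would have more peaks in every cKO than in any WT library. For the 35 single genes these expectations were 0.989 and 3.02. The gap from these expectations was not tested. The exact permutation test of peaks per gene gave 0 of 8383 genes with an adjusted p under 0.05 (0% of those tested) and 0 with an unadjusted p under 0.05, which 3 mice against 3 cannot reach. Without WT 2, 24 members were hit in every cKO and no WT library, against 6.22% of all genes, and 26 had more peaks in every cKO than in any WT library, against 8.41%. The 24 were the 21 Pcdhg genes, which share a peak, Pcdhac2, Cdh22 and Cdh4, so most are not separate observations. Leaving out a library loosens both conditions, and a peak shared by cluster genes counts again in each of them. Without cKO 2 the same 2 counts were 1 and 6, against 4.80% and 8.68% of all genes. They were 0 and 2 without WT 3 (1.68% and 2.76% of all genes) and 0 and 1 without cKO 1 (1.65% and 2.72%). Without cKO 3 they were 0 and 1 (2.02% and 3.35%).

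Counts for partners of the cadherins lay near those expected from gene length. Among 13 genes of catenins and related proteins, those hit in at least 2 libraries numbered 6 in cKO (7.12 expected) and 4 in WT (3.60 expected). Ctnna3, the 1574 kb gene of alpha-T-catenin of the cardiac disc, had 17, 8 and 12 peaks in the cKO libraries, against 0, 9 and 4 in the WT libraries. Its density over the 6 libraries, 31.7 per Mb, lay below the 69.1 of Cdh13. Ctnna2, the gene of the neural alpha-N-catenin, had 13, 3 and 7 peaks in cKO and 1, 6 and 2 in WT. The beta-catenin gene Ctnnb1 and the plakoglobin gene Jup had none. Of 9 desmosomal genes, 2 had hits in 2 or more cKO libraries (2.30 expected) and 0 in WT (0.763 expected); Dsg2, which encodes the desmoglein of the heart, had 2, 2 and 1 peaks in cKO and 0, 1 and 0 in WT, and Dsc3 had 2, 1 and 1 in cKO and 0, 1 and 0 in WT.

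Among 18 other genes of the cadherin superfamily, such hits were found at 9 in cKO (8.05 expected) and at 3 in WT (3.73 expected). Clstn2, which encodes the synaptic protein calsyntenin 2, had 7, 4 and 9 peaks in cKO and 1, 5 and 2 in WT, and Dchs2 and Clstn2 were hit in all 6 libraries. Fat1 had 3, 2 and 2 peaks in cKO and 0, 2 and 1 in WT. For 13 other genes of the intercalated disc the counts were 5 in cKO (6.19 expected) and 2 in WT (3.26 expected). Tjp1, which encodes the junction scaffold ZO-1, had 3, 2 and 3 peaks in cKO and 0, 3 and 1 in WT, and the gap junction gene Gja1 had none.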

How the data were processed

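END-seq peaks were taken as deposited, 1 list per library, from 3 cKO and 3 WT libraries. Per the file headers the authors' lists give each peak's fold change over background, a linear ratio, and a −log10 q value, which was used only as a threshold; all deposited peaks had a q of at most 0.01. The submitters' processing notes name FastQC, SEACR, DiffBind and the build mm10 without roles. Alignment software: not given in the sources used here. Read depth is unknown.

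Peaks on chromosomes 1 to 19, X and Y were kept and given 1-based positions. A hit was an overlap of at least 1 bp between a peak and the RefSeq span of a gene with 1000 bp on both sides. A peak was counted once per locus. Length expectations are sums, over members, of the hit rates of other genes in the same length bin. Peaks per gene were compared by an exact permutation test of mean log2(peaks + 1), two-sided, with Benjamini-Hochberg adjustment over 8383 genes with a peak. Alternatives were lists of equal length, a q limit of 0.00001, an overlap of 50%, gene bodies alone, autosomes, 100 length bins, all 3 libraries, merging within 1000 bp, each library left out and the replicate number as a block.

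The members and lists were chosen with earlier results of these data known. Values in every library are given for Cdh13, Cdh2, Cdh5 and Cdh11, the 10 members with most peaks, members hit in all 6 libraries (no member was hit in every library of 1 genotype and none of the other), the 5 with the highest mean top fold, the clusters, members over 100 kb without a peak and up to 3 genes of each partner list; the others named were chosen to complete their group. Functions were tested on simulated data. Software was scipy 1.17.1, pandas 2.3.3, numpy 2.4.6 and matplotlib 3.10.9 in Python 3.11.15.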

Additional observations from a re-analysis of the deposited data

How the results depend on the processing

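Lists of 1345 peaks turned the cKO minus WT difference of Cdh13 to -0.14, and gave a family log2 ratio of 0.057 and a difference in share of 0.0248 points. They left 4 members hit in cKO and 4 in WT (6.29 and 6.05 expected from length). With 8320 peaks a list and no WT 1, chosen after seeing the data, the family log2 ratio was -0.16 and the Cdh13 difference 0.22. In that setting 48 members were hit in cKO and 9 in WT (28.2 and 19.2 expected from length). A WT hit then needed both remaining libraries, and a peak shared by cluster genes counts again in each of them. Without Cdh13 and Cdh12 the density ratio was 0.783 and the difference in share -0.000984 points. With a q of at most 0.00001, 51 members were hit in cKO and 11 in WT (42.6 and 19.6 expected from length). In that setting 2 members had more peaks in every cKO than in any WT library, against 2.39% of all genes. In all 3 libraries of a genotype, 48 members were hit in cKO and 4 in WT (32.5 and 4.16 expected from length). Leaving out 1 library gave family log2 ratios from 0.61 to 2.35, differences in share from -0.0928 to -0.0271 points, density ratios from 1.06 to 1.19, Cdh13 differences from 0.72 to 2.35, 48 to 51 members hit in cKO and 4 to 24 in WT, 0 to 24 members in every cKO and no WT library, 0 to 26 with more peaks in every cKO library, and 0 genes past the adjusted exact permutation test. Of 110 alternative values, 89 kept their direction or stayed near the reported value, and the others moved further or changed sign; those that changed sign are the Cdh13 difference and the difference in share with lists of 1345 peaks and the log2 ratio with 8320 peaks. The cause was not tested. Between cKO and WT libraries of the same replicate number, correlations of deviations were 0.0524, -0.111 and -0.0240 for numbers 1, 2 and 3. Between unlike numbers they ran from -0.112 to 0.145, so whether the libraries were paired is unknown. With the replicate block the Cdh13 difference stayed 1.57 (exact sign-flip permutation p = 0.5; the smallest possible is 0.25) and 0 genes passed, with 0 at an unadjusted p under 0.05.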
